A study of Mus musculus with 14 samples.

Results

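Dense Polycomb peak clusters are places where H3K27me3 peaks lie close together over many kilobases. They were found by joining neighbouring autosomal peaks whose gap was at most 5000 bp and keeping the joined groups of 10 or more peaks, with the peaks of the 3 deleted stretches left out. This gave 1710 member peaks in 134 clusters, out of 74458 peaks in the series and beside 71050 other autosomal peaks. The rule used positions of peaks alone and no count of a library. A peak is listed where the mark was found, so the number of peaks in a place need not be independent of its level. Of the clusters, 131 were whole and 3 were what remained of a cluster cut by a deletion, among them 4 peaks at Cfap65 and 6 peaks near Hmx1.

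H3K27me3 was mapped by Cut&Tag, in which an antibody tethers the transposase Tn5 so that adapters are inserted beside the mark, in mESCs, that is mouse embryonic stem cells. There were 3 libraries of cells that lacked a Polycomb loop anchor at Hoxa, 2 of cells that lacked that at Wnt6 and 2 of cells that lacked that at Hmx1, and the study asked whether losing an anchor alters the mark elsewhere. All were made by CRISPR-Cas9 editing of wild-type G4 mESCs, a hybrid of the 129/Sv and C57BL/6 strains, and were kept with leukaemia inhibitory factor on CD1 feeder cells. Each deleted line is described in the study as a clone, the table held no unedited cells, the IgG libraries were not analysed here, and the labels do not say that replicates were separate cultures, so that p-values measure the spread between these libraries and a deletion cannot be told apart from its clone.

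Polycomb repressive complex 2 writes H3K27me3 and also binds it, so the mark can extend along chromatin from sites of recruitment. In embryonic stem cells these sites are typically promoters rich in CG pairs that belong to silent developmental regulators, and the Hox gene clusters are the textbook case of a long domain. Polycomb repressive complex 1, whose Cbx subunits read the mark, compacts such domains.

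Totals over the peaks ran from 6016500 to 36563541 counts per library, and the median member peak held between 110 and 673.5 counts. Of 8 stem cell marker genes, Nanog, Tdgf1 and Dppa5a overlapped no peak, and none of the 8 lay in a dense cluster. Of a longer list of 20 pluripotency genes 1 did (Tbx3, 5%), against 0.939% of all protein-coding genes. Summed over the 8 marker genes, the level was between 7.33 and 11.7 CPM (counts scaled to the library total) per kb of gene in the 7 libraries. Of this Klf4 held 4.11 to 8.31. Over 15 genes of feeder fibroblasts the sum was between 141 and 151, of which Twist1 alone held 88 to 101. The sums cover unlike numbers of genes, and each rests mostly on 1 gene. The median gene had 0.316 to 0.532 CPM per kb in the first list and 1.92 to 2.2 in the second. In the second list Col3a1, Lum and S100a4 overlapped no peak, and Fn1, Dcn and Col6a1 had 0.151 or less. Pdgfrb alone of that list overlapped a dense cluster. A gene marked in fewer cells and a gene marked less in each cell cannot be told apart in such bulk libraries.

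A whole cluster held a median of 12 peaks and spanned a median of 28.2 kb, from 15.8 to 116 kb, of which peaks covered a median of 30.4%. Most clusters were near the threshold, with 78 of 10 to 12 peaks and 8 of 20 or more. There were 88 groups of 9 peaks just outside the rule and 43 groups of 10 just inside it, and their levels were 40.8 ± 0.770 and 42.1 ± 0.999 CPM per kb of peak (SD, n = 7 libraries). All 19 autosomes had a cluster, with 18 on chromosome 5, 17 on chromosome 2, 15 on chromosome 8 and 10 on chromosome 11. The peaks themselves were somewhat wider than others, with a median of 568 bp against 474 bp, and 21.3% against 14.7% were over 1000 bp wide.

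The cluster with most peaks was that of the Hoxc genes on chromosome 15 (102904654 to 103020340), where 39 peaks ran from Hoxc13 to Hoxc4 and over the long noncoding RNA Hotair. It was followed by 35 peaks from Evx2 and Hoxd13 to Hoxd4 on chromosome 2 (74646186 to 74728833). Next came 30 peaks that overlapped no protein-coding gene on chromosome 6 (114490199 to 114555802), 6.90 kb from the histamine receptor gene Hrh1. Nfix, a nuclear factor I gene, and the Hoxb9 to Hoxb5 genes had 27 peaks each, and a cluster over the gamma protocadherin genes, which encode neuronal adhesion proteins, had 23. The homeobox gene Six3 and the Mir9-3 locus had 20 each, and Col16a1 with Pef1, Dlx6 with Dlx5, and Vax2 had 18 each. Positions are those of the mm10 build, named in the submitters' notes, as deposited.

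Sequences at these clusters were taken from RefSeq (GRCm38.p6), and 5 promoters are shown because their CG pairs, in capitals, can be set against whether a peak lay on them. Each window holds 300 bases, 250 before and 50 after the start of the gene, read 5′ to 3′ along the gene. For the clusters with most peaks, the promoter with most CG pairs among those in the RefSeq table is given. That in the Tbx3 cluster was added after its values had been seen. The table held 13 promoters in the Hoxd cluster and 4 in the Nfix cluster. It held only 2 each in the Hoxc, Hoxb9 to Hoxb5 and Tbx3 clusters, so promoters of most Hox genes there were not compared. The Hrh1 cluster held no promoter of the table.
Gm38462 (Hoxd cluster, minus strand, chr2:74705552-74705851): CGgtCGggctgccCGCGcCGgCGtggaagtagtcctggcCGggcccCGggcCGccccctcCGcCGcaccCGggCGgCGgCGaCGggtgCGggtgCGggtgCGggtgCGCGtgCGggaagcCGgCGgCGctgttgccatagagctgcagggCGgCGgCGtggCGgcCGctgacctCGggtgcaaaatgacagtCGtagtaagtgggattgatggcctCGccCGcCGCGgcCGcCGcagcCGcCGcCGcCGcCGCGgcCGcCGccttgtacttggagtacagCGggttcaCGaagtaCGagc
Gm36878 (Hoxc cluster, minus strand, chr15:102981014-102981313): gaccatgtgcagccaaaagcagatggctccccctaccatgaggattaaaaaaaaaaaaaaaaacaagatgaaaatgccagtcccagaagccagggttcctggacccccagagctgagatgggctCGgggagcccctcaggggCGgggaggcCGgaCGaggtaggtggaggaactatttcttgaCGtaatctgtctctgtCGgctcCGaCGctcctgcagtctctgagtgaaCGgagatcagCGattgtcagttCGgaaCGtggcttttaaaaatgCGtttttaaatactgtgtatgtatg
Hoxb8 (Hoxb cluster, plus strand, chr11:96281655-96281954): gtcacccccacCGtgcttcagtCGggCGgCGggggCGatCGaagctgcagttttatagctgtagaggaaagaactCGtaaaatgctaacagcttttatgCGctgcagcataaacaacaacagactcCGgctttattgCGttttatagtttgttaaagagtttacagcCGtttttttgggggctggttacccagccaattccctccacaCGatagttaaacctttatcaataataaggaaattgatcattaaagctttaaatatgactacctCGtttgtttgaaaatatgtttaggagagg
Nfix (minus strand, chr8:84780033-84780332): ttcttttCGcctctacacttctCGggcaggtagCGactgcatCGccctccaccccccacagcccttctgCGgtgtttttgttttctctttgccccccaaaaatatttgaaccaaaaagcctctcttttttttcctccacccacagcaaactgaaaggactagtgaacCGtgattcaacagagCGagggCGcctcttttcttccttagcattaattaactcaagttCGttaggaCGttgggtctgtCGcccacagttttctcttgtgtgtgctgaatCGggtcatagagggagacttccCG
Tbx3os1 (Tbx3 cluster, minus strand, chr5:119671459-119671758): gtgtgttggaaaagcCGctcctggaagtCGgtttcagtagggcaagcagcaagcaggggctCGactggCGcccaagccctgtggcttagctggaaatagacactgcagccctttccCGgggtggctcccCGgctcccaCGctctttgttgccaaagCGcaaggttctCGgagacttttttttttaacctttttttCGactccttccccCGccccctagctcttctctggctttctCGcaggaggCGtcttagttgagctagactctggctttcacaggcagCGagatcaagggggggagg

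The Gm38462 promoter held 49 CG pairs, a number reached by 1.05% of the 31396 autosomal promoters of the table, and lay inside a peak from 74704652 to 74706063. The promoters of Gm36878, Hoxb8 and Nfix held 13 CG pairs each, which 38.5% of promoters reached, and that of Tbx3os1 held 14, which 36.8% reached. None of these 4 windows overlapped a peak, although each lay within a dense cluster. The letters CG read the same on both strands, and their count is a description of the window.

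The 5 sequences were picked for their CG pairs, so they do not stand for the 212 promoters inside clusters. A median of 16 CG pairs was found inside clusters against 7 outside, and 35.8% had 20 or more against 27% of all promoters. A peak lay on 167 of the 212 (78.8%), against 44.5% of promoters outside. Inside clusters, the median was 18 CG pairs in promoters with a peak and 9 in those without, while outside it was 21 and 3. A promoter without a peak thus held more CG pairs inside clusters than outside, and a promoter with a peak held slightly fewer.

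The clusters also held 13 of the 1058 microRNA genes of the RefSeq table (1.23%), in 8 clusters. MicroRNAs pair with target messages through a seed at bases 2 to 8, in capitals below, and the sequences are shown because several loci of the same microRNA lay in separate clusters.
miR-9-5p (Mir9-1 at chr3:88215613-88215635, Mir9-2 at chr13:83738821-83738843 and Mir9-3 at chr7:79505279-79505301, all plus strand): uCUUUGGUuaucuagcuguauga
miR-196a-5p (Mir196a-1 at chr11:96265187-96265208 and Mir196a-2 at chr15:102973365-102973386, plus strand): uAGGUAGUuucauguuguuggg
miR-10a-5p (Mir10a at chr11:96317186-96317208, plus strand): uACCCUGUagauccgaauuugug
miR-10b-5p (Mir10b at chr2:74726074-74726096, plus strand): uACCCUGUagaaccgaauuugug
miR-153-3p (Mir153 at chr12:117250860-117250881, plus strand): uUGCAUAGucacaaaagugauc

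All 3 loci of miR-9, a microRNA of the nervous system, lay in dense clusters, on chromosomes 3, 13 and 7, and a peak overlapped the mature miR-9-5p at each. The pair of miR-196a loci lay among the Hoxc and Hoxb genes, and miR-10a and miR-10b, which share the seed ACCCUGU, among the Hoxb and Hoxd genes. Mir153 lay in a cluster of 12 peaks that overlaps the phosphatase gene Ptprn2. The remaining loci were Mir615, Mir3093 and 3 genes of miR-9b on the opposite strand of the miR-9 loci.

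Among gene families, Hox genes were nearly all inside dense clusters. Of 29 Hox genes outside the Hoxa stretch, 25 (86.2%) overlapped a cluster, against 0.939% of 20665 protein-coding genes. Of 113 other homeobox genes 36 (31.9%) did, among them Pax3, Pax6, Six3, Otx2, Lhx1, Dlx1, Dlx2, Cdx2 and Vax2, which specify parts of the embryo. For T-box factors the count was 4 of 13 (Tbx1, Tbx2, Tbx3 and Tbx5), for forkhead factors 5 of 25, for basic helix-loop-helix factors 4 of 43 (Hes5, Hand1, Hand2 and Neurod2), and for Sox factors 1 of 14 (Sox1).

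For genes of secreted signals the counts were small, but the lists are short, and 0.939% of all protein-coding genes overlapped a cluster. Of 17 Wnt ligands only Wnt5a was inside (5.88%), as was 1 of 19 secreted antagonists (Sfrp1, 5.26%). None of 23 BMP and TGF-beta ligands, 20 FGF ligands and 3 Hedgehog ligands was. At the share of all genes, lists of this length need hold none, so these zeros do not set them apart. Peaks overlapped 17, 17, 21, 19 and 3 genes of these 5 lists, and 14729 of the 20665 protein-coding genes. None of 18 housekeeping genes lay in a dense cluster, and a list this short also need hold none. In all, 37 clusters held a homeobox gene of the lists and 52 a gene of the 8 transcription factor lists. A further 62 held other protein-coding genes and 20 held none, of which 13 had a noncoding RNA.

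The mark was denser inside these clusters than elsewhere. Per kb of peak, members had 45.55, 44.32 and 44.19 CPM in replicates 1 to 3 of the Hoxa deletion. They had 44.79 and 44.89 in the Wnt6 deletion and 45.68 and 47.46 in the Hmx1 deletion. Other autosomal peaks had between 20.11 and 20.25 in the same libraries, so that the ranges were far apart. The ratio was 2.24 ± 0.0609 (SD, n = 7), with an exact sign-flip permutation p = 0.01562 over libraries, two-sided, the smallest that 7 libraries allow. For the median peak the ratio was 4.30 ± 0.22 (SD, n = 7). Counts were not corrected for a control antibody, and the origin of the peak list is not given in the sources used here. The ratio is therefore a description and not a test independent of how peaks were found.

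The level was higher the more peaks were joined, also below the threshold of the rule. It was 15.9 ± 0.173 CPM per kb of peak (SD, n = 7) for 30602 peaks that stood alone. It was 20.3 ± 0.0733 for groups of 2 to 3, 28.5 ± 0.171 for groups of 4 to 6 and 37.3 ± 0.589 for groups of 7 to 9. For dense clusters it went on to 42.2 ± 1.30 at 10 to 12 peaks, 47.4 ± 1.12 at 13 to 19 and 49.8 ± 1.06 at 20 or more. Each range over the 7 libraries lay above that of the next smaller size but for the last, where 48.6 to 51.5 overlapped 46.2 to 49.6. The steps thus showed no break at 10 peaks, as the plot of level by number of joined peaks shows.

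**Figure D1:**
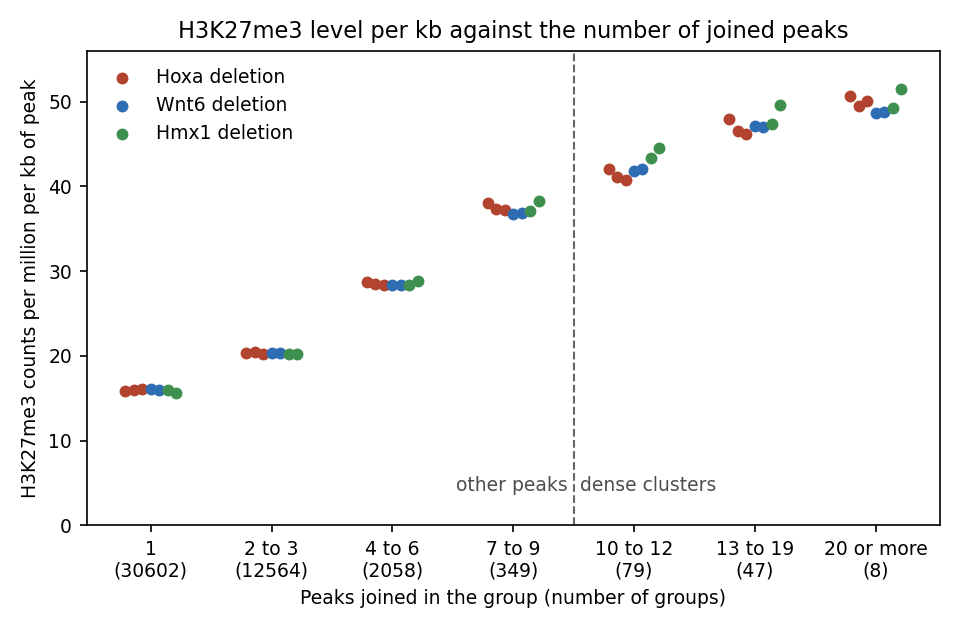
H3K27me3 in CPM per kb of peak (vertical axis) for groups of increasing numbers of joined peaks (horizontal axis, with the number of groups in brackets). Each point is 1 of 7 libraries, coloured by deletion. The points climb from about 15.9 for lone peaks to 49.8 for clusters of 20 or more, and the dashed line marks the limit of 10 peaks.

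The difference was present also away from promoters. Peaks that overlapped a promoter window made up 133 members (7.78%), in 84 of the clusters, against 15.2% of other autosomal peaks. They were wide, with a median of 1072 bp against 541 bp for the other members. Their level per kb was 1.51 ± 0.0241 times (SD, n = 7) that of the other members, whereas for peaks outside clusters the ratio was 1.97 ± 0.0451. With promoter peaks left out on both sides, members still exceeded other peaks 2.61 ± 0.0717 times (SD, n = 7). Each of the 6 ratios tested in this way gave the same exact sign-flip permutation p of 0.01562, also after Benjamini-Hochberg adjustment over the 6, and the ratios on promoters were chosen after the levels had been seen. That p measures how far the libraries agree over the same peaks, and not the spread between peaks.

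Within a cluster the mark was lowest at the ends. The 2 first and 2 last peaks had 0.686 ± 0.0132 times (SD, n = 7) the level per kb of the peaks between them, by the median over 131 whole clusters, with values from 0.666 to 0.703 in the 7 libraries (exact sign-flip permutation p = 0.01562, two-sided). This p measures how far the libraries agree over the same clusters, and not the spread between clusters. The ends were lower in 104 clusters, and in 102 of these they were so in every library. They were higher in 27, and in 20 of these in every library. Relative to the cluster mean, the median outermost peak lay at -0.69 ± 0.037 on the log2 scale (SD, n = 7), the second at -0.35 ± 0.038, the third at -0.10 ± 0.019 and the fourth at 0.004 ± 0.025. The difference depended on the gap, and with one of at most 2000 bp, which left 7 clusters, the log2 ratio of ends to inner peaks went from -0.544 to -0.08. Outermost peaks were also narrower, with a median width of 504 bp against 551.5 to 613.5 bp further in, and the part of width in the level was not tested.

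**Figure D2:**
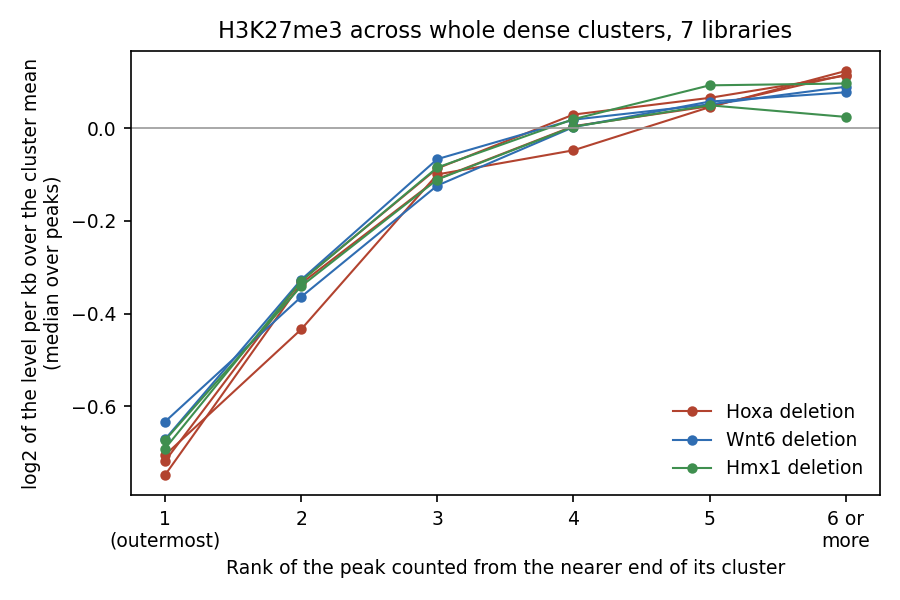
Level of the mark per kb of peak relative to the mean of the cluster, as log2 (vertical axis), against the rank of a peak counted from the nearer end (horizontal axis), as the median over 262 peaks per rank and 388 in the last. Each line is 1 of 7 libraries, coloured by deletion. All 7 lines rise from about -0.69 at the outermost peak to near 0 at the fourth.

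Clusters differed widely in level. The median cluster had 45.3 CPM per kb of peak, with 25% of clusters below 26.5 and 25% above 55.6. Among the highest by the mean over libraries were Sox1, which encodes a factor of the early neural plate, with 81.0 ± 16.3 (SD, n = 7), Zfp503 with 75.4 and Skor1 with 74.8 CPM per kb. Sox1 lies on chromosome 8, which was lower in the Hoxa libraries, and their order differed with it. It was first in the Wnt6 and Hmx1 libraries, with 83.2 to 97.7 CPM per kb, but had 62.8 to 67.5 in the Hoxa libraries, where Skor1 was first in replicate 1 and Zfp503 in replicates 2 and 3. The lowest overlapped Dpf3, with 8.84, and Hmga2, with 10.6. Clusters with a gene of the 8 transcription factor lists had 52.2 ± 1.45 CPM per kb (SD, n = 7), those with other protein-coding genes 41.8 ± 1.21 and those with none 31.7 ± 0.708. The lists are not complete, and the second class also holds transcription factor genes outside them, such as Nfix, Meis2 and Wt1. The first exceeded the second 1.25 ± 0.0229 times and the third 1.65 ± 0.0484 times (SD, n = 7), with an exact sign-flip permutation p = 0.01562 for each over libraries, and this division of the clusters was made after levels had been seen. This p and these SDs measure how far the libraries agree over the same clusters, and not the spread between clusters. Single clusters ran from 21 to 81 CPM per kb in the first class, from 8.84 to 75.4 in the second and from 10.9 to 65.6 in the third. The classes thus overlapped widely, with medians over clusters of 51.8, 38.8 and 25.5. Median spans were 27.6, 28.5 and 28.6 kb, so that they hardly differed in length.

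The deletions were then compared. Each deletion was tested against the other 2 pooled with edgeR's quasi-likelihood test over all peaks, and calls required a log2 fold change beyond 1 in either direction with an adjusted p under 0.05. The 3 comparisons share their libraries. The share of all counts that fell in members was 5.742%, 5.587% and 5.570% in replicates 1 to 3 of the Hoxa deletion, 5.646% and 5.658% in the Wnt6 deletion, and 5.758% and 5.982% in the Hmx1 deletion. The mean difference from the other deletions was -0.1282, -0.07589 and 0.2297 percentage points, with exact permutation p of 0.2857, 0.5714 and 0.09524 (two-sided), and 0.4286, 0.5714 and 0.2857 after adjustment over the 3. The smallest p the design allows is 0.05714 for Hoxa and 0.09524 for the others, so no difference could have passed 0.05. Both Hmx1 libraries were nevertheless above the other 5.

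In the Hoxa deletion, 10 of 1710 members were called (0.585%), against 1.55% of all tested peaks. Of these 4 were higher and 6 lower, where 0.566% and 0.983% of all peaks were. For Wnt6 it was 3 members (0.175%) against 0.0497%, and for Hmx1 4 members (0.234%) against 0.0282%. All 7 were lower, and of all peaks 0.0242% were called lower in the Hmx1 deletion. Those 7 peaks lay within the clusters cut by the respective deletion. All tested peaks include those of the deleted stretches, which members do not. Among 71035 other autosomal peaks outside the stretches, 1.52% were called in the Hoxa deletion, 0% in the Wnt6 deletion and 0.00845% in the Hmx1 deletion. Members were measured more precisely than most peaks, with median standard errors of 0.124, 0.163 and 0.157 on the log2 scale in the 3 comparisons against 0.215, 0.255 and 0.262 over all peaks. Without a minimum on the fold change, 269 members (15.7%) had an adjusted p under 0.05 in the Hoxa deletion, against 8.53% of all peaks, and no further member did in the Wnt6 and Hmx1 deletions, where 0.0564% and 0.0309% of all peaks did. Median log2 fold changes of members were -0.03, -0.05 and 0.09, and over all tested peaks -0.0054, -0.0025 and -0.0062.

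Chromosome 8 stood apart in the Hoxa deletion, and its 195 members moved with it. Their median log2 fold change was -0.56, with -0.57, -0.58 and -0.55 in the 3 Hoxa libraries, and that of the other chromosome 8 peaks was -0.59. On chromosome 8, 5 members (2.56%) were called lower, against 9.55% of its peaks, and elsewhere 5 of 1515 members (0.330%) were called, against 0.900% of peaks outside chromosome 8. Without the fold change minimum, 151 of the 269 members with an adjusted p under 0.05 lay on chromosome 8. That was 77.4% of its members, against 39.5% of its other peaks. Elsewhere it was 118 of 1515 members (7.79%), against 5.81% of other autosomal peaks outside the stretches. In the Wnt6 and Hmx1 deletions, whose comparisons include the Hoxa libraries, chromosome 8 members had medians of 0.27 and 0.35. What shifted the chromosome was not tested. Over the 18 other autosomes, medians of members lay between -0.165 and 0.232 in the Hoxa deletion.

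To see shifts along whole clusters, counts were summed over each joined group and the 46755 groups were tested in the same way. No dense cluster passed the fold change minimum in the Hoxa deletion by edgeR or by DESeq2 (35 had an unadjusted p under 0.05), where 1.5% of all groups did. Of the 134 clusters, 29 (21.6%) had an adjusted p under 0.05, 8 higher and 21 lower, against 11.4% of all groups and 22% of groups of 4 to 9 peaks. All 15 clusters on chromosome 8 were among the lower ones, from -0.35 for Sfrp1 to -0.73 for the cluster in the region of Irf8, and they included those of Hand2, Foxf1, Foxc2, Sox1 and Nfix. Outside chromosome 8, and without the 3 cut clusters, 12 of 116 clusters had an adjusted p under 0.05, 7 higher and 5 lower, against 8.39% of groups outside chromosome 8, and 90.5% lay within 0.25 of no change. In the Wnt6 and Hmx1 deletions none of these 116 did, where 0.00856% and 0.0278% of all groups did, and 1 dense cluster each was called over all 134, at its own breakpoint (0.746%, against 0.00214% and 0.015% of all groups called).

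**Figure D3:**
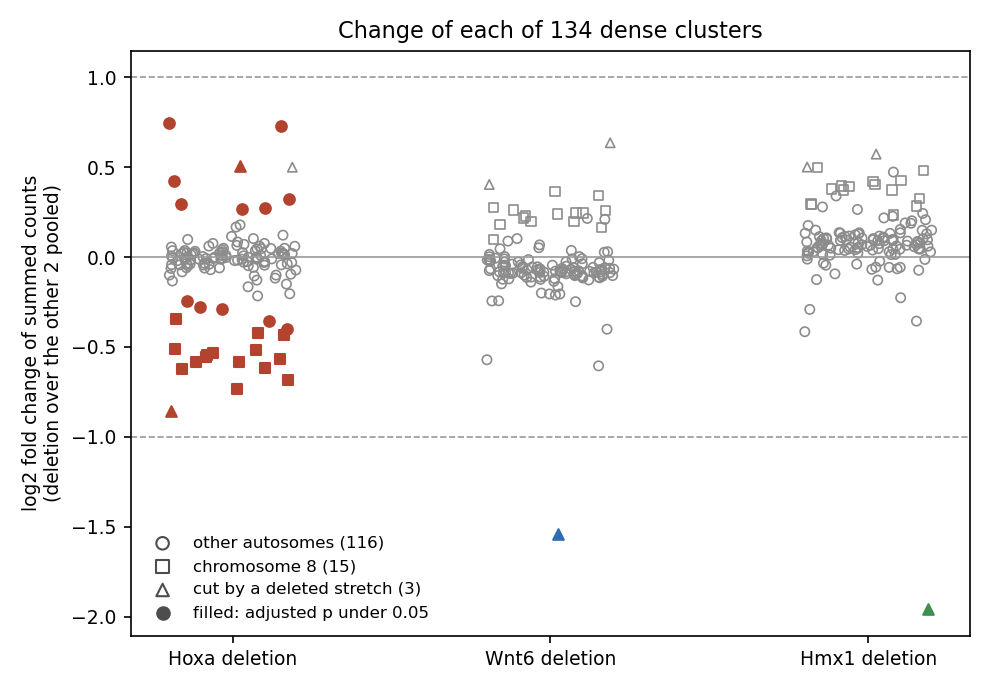
Log2 fold change of the summed counts of each of 134 dense clusters (vertical axis) in the 3 deletions (horizontal axis, points spread sideways for legibility). Squares are the 15 clusters of chromosome 8, triangles the 3 clusters cut by a deletion, filled symbols have an edgeR adjusted p under 0.05, and dashed lines mark the minimum of 1. In the Hoxa deletion the squares lie between -0.73 and -0.35, and in the Wnt6 and Hmx1 deletions 1 triangle each lies below -1.

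The 2 clusters that rose most in the Hoxa deletion were the cluster near Hrh1 and that of Tbx3. The cluster near Hrh1, on the deleted chromosome but 62.2 Mb from the stretch, had 473, 453 and 451 CPM in the Hoxa libraries, 265 and 260 in the Wnt6 libraries, and 282 and 288 in the Hmx1 libraries. Every Hoxa library lay well above every other. The log2 fold change came to 0.75 ± 0.0665 (SE, edgeR adjusted p = 2.65e-13). Of its 30 peaks 29 lay above 0. The exception was a peak near its far end at -0.85 (edgeR adjusted p = 0.000764). It was itself among the 26 peaks with an adjusted p under 0.05.

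Tbx3 encodes a T-box repressor of limb and heart development that stem cells also express, and its cluster lies on chromosome 5 (119651574 to 119691301), away from the Hoxa deletion. It had 302, 298 and 276 CPM in the Hoxa libraries, 164 and 166 in the Wnt6 libraries, and 185 and 192 in the Hmx1 libraries, again without overlap. The log2 fold change came to 0.73 ± 0.0707 (SE, edgeR adjusted p = 5.29e-12). All 17 peaks were above 0, from 0.47 to 1.25, and 16 had an adjusted p under 0.05. Both clusters were among the weakly marked ones, at 19.9 and 21.0 CPM per kb, below the 26.5 that bounds the lowest 25% of clusters.

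The peaks called within these clusters were 3 near Hrh1 and 1 at Tbx3. At 119682559 to 119683431 in the Tbx3 cluster the level was 21.3, 22.5 and 19.3 CPM in the Hoxa libraries, 6.90 and 7.97 in the Wnt6 libraries and 10.5 and 10.4 in the Hmx1 libraries, which is 1.25 on the log2 scale (edgeR adjusted p = 3.33e-09). At 114521715 to 114522266 near Hrh1 it was 17.4, 15.1 and 14.9, then 7.41 and 7.19, then 8.45 and 7.91 CPM in the same order, which is 1.04 on the log2 scale (edgeR adjusted p = 3.69e-07). In each of these peaks the Hoxa libraries were all above the rest. The other 2 near Hrh1 had log2 fold changes of 1.24 and 1.05. The call of the peak at 114521715 was lost against the Hmx1 deletion alone and without Hoxa replicate 1 or Wnt6 replicate 2, at 0.954 or above, and that of the last peak against the Hmx1 deletion alone and without Wnt6 replicate 1, at 0.885 or above.

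No such shift was seen along the largest Hox clusters. In the Hoxc cluster 18 of 39 peaks lay above 0 and 21 below, from -0.30 to 0.25, and none had an adjusted p under 0.05. In the Evx2 and Hoxd cluster it was 17 and 18 of 35, from -0.33 to 0.16, again with none. Over all clusters outside chromosome 8 that were not cut, 55.0% of the variance of peak log2 fold changes lay between clusters in the Hoxa deletion, 41.7% in the Wnt6 deletion and 43.2% in the Hmx1 deletion. Peaks of a cluster are neighbours in the same libraries and not independent, so this is a description.

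**Figure D4:**
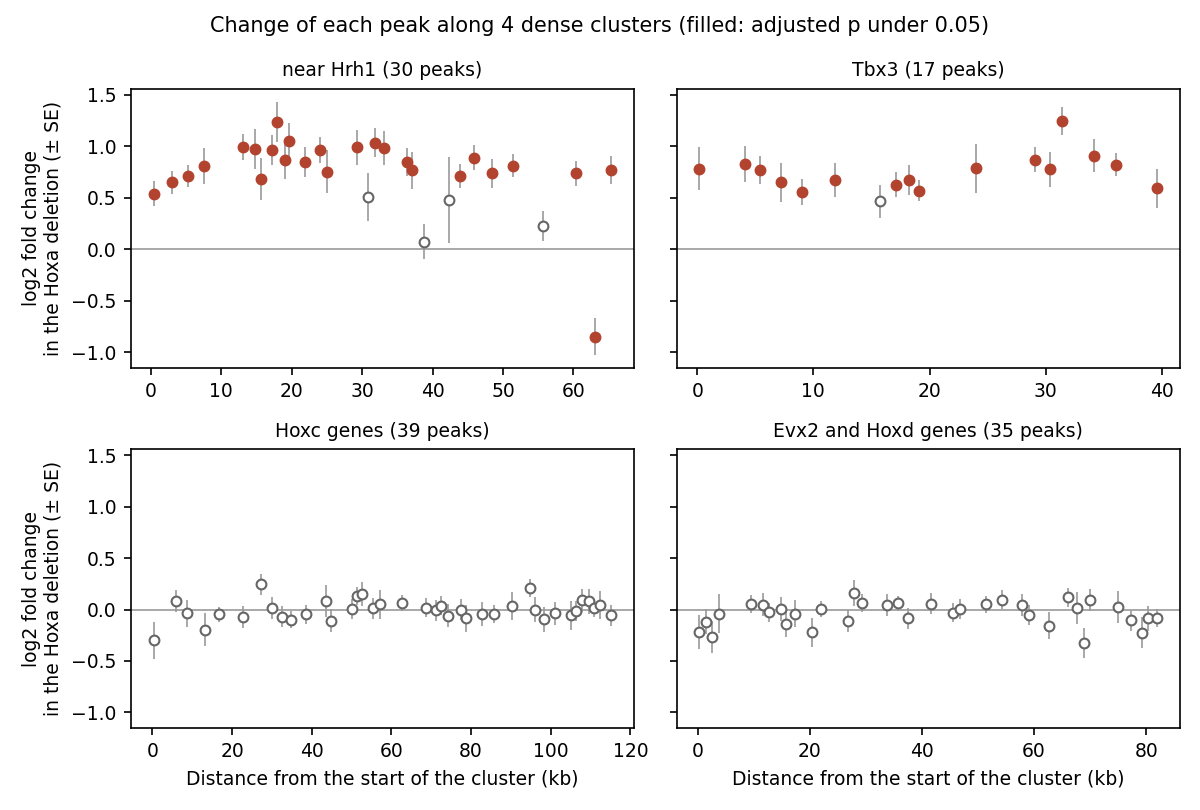
Log2 fold change of each peak in the Hoxa deletion with its standard error (vertical axis) against distance from the start of the cluster in kb (horizontal axis), for 4 dense clusters. Filled points have an edgeR adjusted p under 0.05. Points lie above 0 along the Tbx3 cluster and along the cluster near Hrh1 but for 1 at -0.85, and scatter around 0 along the Hoxc and Hoxd clusters.

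A further 5 whole clusters rose in the Hoxa deletion by less. They were a pair over the gamma protocadherin genes on chromosome 18 (0.42 and 0.29), Otx2, a homeobox gene of the forebrain (0.32), Pklr with Hcn3 (0.27) and a cluster near Psd2 on chromosome 18 (0.27). The first of these had 454, 436 and 453 CPM in the Hoxa libraries against 318 to 352 in the others. At Otx2 the Wnt6 libraries, with 257 and 235, were also below the Hmx1 libraries, with 296 and 304, and the change was not significant against the Hmx1 deletion alone (0.18). The 5 that fell outside chromosome 8 were Thbs2, which encodes a thrombospondin (-0.40), a cluster near Fgd2 (-0.36), Ptprn2 (-0.29), Kif26b (-0.28) and a cluster near Rpl14 (-0.24). Thbs2 had 143, 154 and 132 CPM in the Hoxa libraries against 178 to 202 elsewhere, and all 11 of its peaks were below 0. The calls at Ptprn2, Kif26b, the Rpl14 cluster, and Pklr with Hcn3 were lost against the Wnt6 deletion alone or without some of the libraries.

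No Hox cluster far from the deletion passed the test. The Hoxc cluster had 1741, 1637 and 1616 CPM in the Hoxa libraries, 1660 and 1551 in the Wnt6 libraries and 1637 and 1767 in the Hmx1 libraries. Its log2 fold changes were 0.01 ± 0.0622, -0.07 ± 0.0549 and 0.05 ± 0.0516 (SE) in the Hoxa, Wnt6 and Hmx1 deletions. The Hoxd cluster was at 0.01 ± 0.0626, -0.08 ± 0.0558 and 0.06 ± 0.0527 (SE). The Hoxb9 to Hoxb5 cluster was at 0.10 ± 0.0636 in the Hoxa deletion and that of Hoxb3 and Hoxb4 at -0.02 ± 0.0687 (SE). Libraries of different deletions overlapped in the Hoxc and Hoxd clusters, and edgeR adjusted p were 0.366 or above for all 4 in the Hoxa deletion.

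Next to the Wnt6 and Hmx1 deletions the remainders of cut clusters were lower. At Cfap65, beside the Wnt6 stretch, 4 peaks had 15.6 and 19.9 CPM in the Wnt6 libraries against 46.7 to 59.5 in the others, which is a log2 fold change of -1.54 ± 0.139 (SE, edgeR adjusted p = 7.12e-05). All 4 were below 0, from -1.65 to -1.35. In the cluster near Hmx1, 6 peaks had 28.6 and 28.0 CPM in the Hmx1 libraries against 103 to 126, which is a log2 fold change of -1.96 ± 0.108 (SE, edgeR adjusted p = 4.03e-09). Its peaks ranged from -2.76 to -0.88. The library groups did not overlap in either remainder, as the plot of CPM by library shows.

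**Figure D5:**
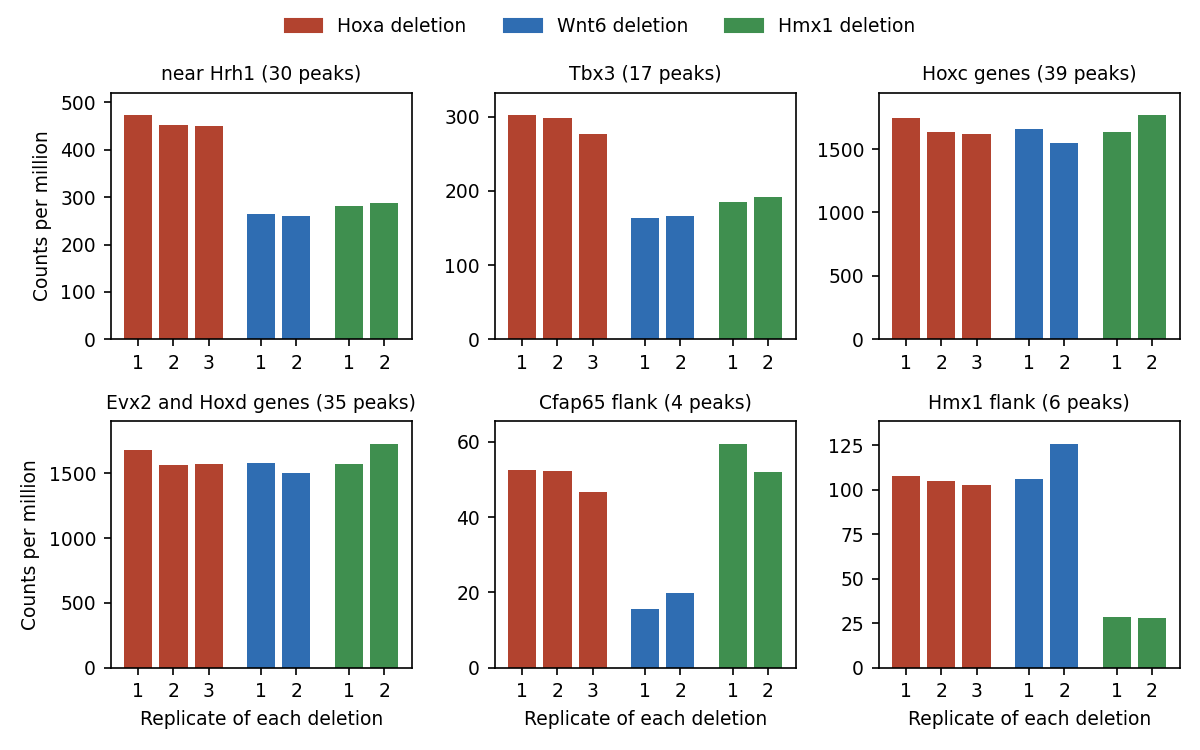
CPM (vertical axes, from 0) in each library, by replicate number and coloured by deletion, for 6 dense clusters. The Hoxa deletion bars are highest near Hrh1 (451 to 473) and at Tbx3 (276 to 302), the Wnt6 and Hmx1 bars are lowest at the Cfap65 and Hmx1 flanks, and in the Hoxc and Hoxd clusters the bars of the 3 deletions overlap in height.

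The whole dense clusters nearest the stretches did not pass the test either. The next cluster to the Hmx1 stretch, over the carboxypeptidase gene Cpz and 0.102 Mb away, was at -0.09 ± 0.0754 (SE) in the Hmx1 deletion, and that near Fgfr3, 1.67 Mb away on the other side, at 0.06 ± 0.0673. For the Hoxa stretch, the cluster of Gm40363 at 4.38 Mb was at 0.18 ± 0.0702 (edgeR adjusted p = 0.0904) and that of Tet3, 31.1 Mb away on the other side, at -0.04 ± 0.0705. For the Wnt6 stretch, Pax3 at 3.29 Mb was at -0.01 ± 0.0662 and Pou3f3, 32.0 Mb away on the other side, at -0.05 ± 0.0690.

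Loop partners of the deleted anchors named by the study, all homeobox genes, lay in or near dense clusters too. Vax2 had 521, 474 and 468 CPM in the Hoxa libraries, 472 and 442 in the Wnt6 and 477 and 527 in the Hmx1 libraries, a log2 fold change of 0.02 ± 0.0678 (SE) in the Hoxa deletion (edgeR adjusted p = 0.881). Pax3 in the Wnt6 deletion had an edgeR adjusted p = 0.988. In the Hmx1 deletion Msx1 was at 0.12 ± 0.0624 and the cluster near Nkx1-1 at 0.09 ± 0.0650 (edgeR adjusted p = 0.552 and 0.674). None of the 4 passed the test.

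In the Wnt6 deletion, the lowest clusters after Cfap65 were Otx2 (-0.40, edgeR adjusted p = 0.415), Tbx3 (-0.61) and the cluster near Hrh1 (-0.57), whose comparisons include the Hoxa libraries that were high there. Among the highest were Unc13a with Jak3 on chromosome 8, at 0.34, and the cluster near Fgd2, at 0.22. In the Hmx1 deletion the highest were a cluster in the region of B3glct (0.47, edgeR adjusted p = 0.110), Cdkn2aip on chromosome 8 (0.50, edgeR adjusted p = 0.212) and Kif26b (0.34, edgeR adjusted p = 0.212). The cluster in the region of B3glct had 61.3 and 75.2 CPM in the Hmx1 libraries against 47.2 to 51.7 in the others. None of these values passed the threshold.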

How the data were processed

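Raw counts over a shared list of peaks in 7 H3K27me3 Cut&Tag libraries were used as deposited by the authors, with no normalization. The submitters' notes name Trimmomatic, Bowtie2, SAMtools, Picard, MACS2 and deepTools and the mm10 build. Whether reads or fragments were counted, how duplicates were treated and how the peak list was pooled are not given in the sources used here. Groups were taken from the sample titles. Of the series, 7 IgG samples were not analysed. Some results are not reported here.

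Members and lists were chosen with earlier results of these data known. Peaks of the 3 deleted stretches (91) were left out after joining. Peaks were filtered with filterByExpr by genotype and scaled by TMM factors with edgeR 4.0.16 and limma 3.58.1 (R 4.3.3), with DESeq2 1.42.0 as an alternative. Each deletion was tested against the other 2 pooled with glmQLFit and glmQLFTest, with p adjusted by Benjamini-Hochberg over all tested peaks or joined groups, and standard errors were derived from the F statistic. Levels per kb are summed CPM over summed peak width. Level ratios were tested by flipping the sign of each library's log2 ratio, and shares of counts by permuting libraries, both exactly. Gene names, promoters and microRNAs came from RefSeq tables of GRCm38.p6, and a cluster is named by the protein-coding genes it overlaps. Plots used Python 3.11.15 and matplotlib 3.10.9. The procedures were tested on simulated data.

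The clusters named are the 12 with most peaks, those with a Hox gene, Vax2, Pax3, Nkx1-1 or Msx1, those nearest each stretch on either side, and for each deletion the clusters called or, where fewer than 5 were called, the 3 in each direction with the smallest p. Named peaks are up to 3 called members in each direction. Other clusters with an adjusted p under 0.05 in the Hoxa deletion, and the highest and lowest in level, were named after their values were seen. Alternatives were DESeq2, RLE factors, library totals alone, offsets by abundance, other count filters, a term for each genotype, a replicate block, each other deletion alone, no fold change minimum, no chromosome 8, gaps of 2000 and 10000 bp, clusters of 20 peaks or more, stretches left out before joining, the outermost peak alone as an end, medians in place of sums, and each library left out.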

Additional observations from a re-analysis of the deposited data

How the results depend on the processing

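Of 268 alternative values for the main quantities, 220 stayed within the limits set for them, 47 moved and 1 reversed. Of 844 for named clusters and peaks, 792 stayed past their threshold with the same sign, 51 did not pass it and 1 reversed. For clusters this threshold was an adjusted p under 0.05 with no fold change minimum, and for peaks it was that of a call.

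Against the Wnt6 deletion alone, 1.23% of members were called in the Hoxa deletion, with a median log2 fold change of 0.0204, and 0.746% of clusters. Against the Hmx1 deletion alone these were 1.35%, -0.0847 and 0.746%, and the log2 fold change at Cfap65, whose Wnt6 libraries are low, reversed to -0.128. In the Wnt6 deletion, 1.23% of members were called against Hoxa alone and 0.526% against Hmx1 alone, where the median was -0.1 and 1.49% of clusters were called. In the Hmx1 deletion, 1.35% were called against Hoxa alone, and 0.526% of members and 1.49% of clusters against Wnt6 alone. Without a fold change minimum, 15.7% of members and 21.6% of clusters passed in the Hoxa deletion, and without chromosome 8, 0.33% of members. For Wnt6, DESeq2 called 0.292% of members, and a term for each genotype 0.468% of members and 1.49% of clusters.

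Other forms of the rule also moved values. A gap of 2000 bp left 74 peaks in 7 clusters, with log2 ratios of 1.583 for members over other peaks and -0.08 for ends over inner peaks, and 2.7% of members were called in the Hoxa deletion, with medians of 0.0339 for Hoxa and 0.0406 for Hmx1. A gap of 10000 bp gave 12551 peaks in 857 clusters, with log2 ratios of 0.72 and -0.548, 1.06%, 0.0239% and 0.0398% of members called in the Hoxa, Wnt6 and Hmx1 deletions, 0.233%, 0% and 0.117% of clusters, and a median of 0.0379 for Hmx1. Clusters of 20 peaks or more had 1.81% of members called in the Hoxa deletion, medians of 0.0395 for Hoxa and 0.034 for Hmx1, and a difference in share of counts that reversed to 0.0093 percentage points (exact permutation p = 0.514). With a gap of 2000 bp, with 20 peaks or more, and with stretches left out before joining, 0% of members and 0% of clusters were called in the Wnt6 and Hmx1 deletions, since the cut clusters then are no members.

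Leaving out 1 library at a time gave 0.585 to 1.05% of members called for Hoxa, 0.0585 to 0.234% for Wnt6 and 0.175 to 0.234% for Hmx1, with medians of -0.0567 to 0.0036, -0.08 to -0.0164 and 0.0624 to 0.1117. Clusters called stayed at 0%, 0.746% and 0.746%. Differences in share were -0.1826 to -0.0544, -0.1153 to -0.0123 and 0.1176 to 0.3418 percentage points. The log2 ratio of members to other peaks was 1.151 to 1.17 and that of ends to inner peaks -0.55 to -0.537. Where 1 library of a deletion was left, it was assumed to vary like the others.

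Correlations of same-numbered libraries, taken on deviations from the mean of their deletion, were from -0.042 to 0.083. With 2 libraries in a deletion these deviations mirror each other, so the check cannot decide whether replicate numbers pair the libraries. Totals did go with the number. They were 8656908, 9982841 and 6016500 counts in replicate 1 of the Hoxa, Wnt6 and Hmx1 deletions. In replicate 2 they were 25595584, 36563541 and 25798208. A replicate block gave 0.877% of members called for Hoxa, 0.175% for Wnt6 and 0.175% for Hmx1, and the calls at Ptprn2, Kif26b and the cluster near Rpl14 were lost. The rises near Hrh1 and at Tbx3 held under all 18 alternatives, at 0.686 to 0.807 and 0.632 to 0.824. The smallest library had 110 counts in the median member peak, which limits what single peaks can show.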
